A study of Mus musculus with 8 samples.

Results

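The genes *Yap1*, *Wwtr1*, *Tead1*, *Tead2*, *Tead3*, *Tead4*, *Vgll2*, *Vgll3* and *Vgll4* encode the transcriptional effectors of Hippo signaling and the cofactors that compete for them. They were taken by gene symbol from the expression table, 9 genes of the 24341 listed. The rule used no measured value, but earlier results of these data were known when the genes were chosen. Total RNA was sequenced from individual pancreas buds at E11.0 (about 40 somites), with 5 WT buds and 3 *Lats1/2* PanKO buds, each a library of its own. Both groups are labelled as CD1 strain, and the genotype of the second is *Pdx1Creearly;Lats1f/f;Lats2f/f*. In it, Cre driven by the *Pdx1* promoter recombines the floxed alleles of both kinase genes in the pancreatic lineage. Cells without Cre keep both genes. Pancreatic mesenchyme was pulled away with forceps before RNA isolation. The methods name WT or heterozygous littermates as controls for mutants in general, and the labels of these controls say WT. Levels are given in FPKM, in which the fragments of a gene are scaled to transcript length and to sequencing depth, so that levels of different genes can be set side by side.

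In Hippo signaling, the LATS1 and LATS2 kinases phosphorylate YAP1 and TAZ (the product of *Wwtr1*), which keeps both coactivators in the cytoplasm and marks them for degradation. Unphosphorylated YAP1 and TAZ enter the nucleus, where they cannot bind DNA themselves and act through the TEAD transcription factors, which recognize a short DNA core. VGLL proteins bind the same surface of TEAD, and VGLL4 is known as a repressor that competes with YAP1. Since LATS acts on the proteins, RNA levels report the transcripts of each factor and not its protein amount, phosphorylation or location.

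The sequence that TEAD proteins recognize was looked for in the members' own promoters, since these are genes that encode the TEAD complex. The core searched was CATTCC on either strand, which reads GGAATG on the other, in RefSeq promoters of GRCm38.p6 that run from 250 bases before the start site to 50 bases after it. Of the 9 genes, 7 had an entry, with 10 promoters, and *Tead1* and *Tead4* had none. At least 1 core was found for 5 of the 7, namely *Yap1*, *Wwtr1*, *Tead3*, *Vgll3* and *Vgll4*, and none in these windows for *Tead2* and *Vgll2*. The promoters of *Vgll4* (chr6:114969154-114969453) and *Vgll3* (chr16:65814939-65815238) do not overlap the loci measured here. On the minus strand, the *Vgll4* locus begins at 114921752, and on the plus strand the *Vgll3* locus begins at 65815633. Of all 27025 genes with an entry, 4481, or 16.6%, hold it in at least 1 promoter. Counted by promoter, 7 of the 10 hold it, against 4817 of all 32851 promoters of the same length, or 14.7%, and the 2 *Wwtr1* promoters overlap and share a core. One of the 3 *Tead3* promoters holds 3 cores, and 0.122% of all promoters hold 3 or more. A match is a description of the letters and not evidence of binding. These windows are written 5′ to 3′ along the gene's strand, all 4 genes with 20 bases on each side of the core, which is in capitals. They lie at chr9:8004712-8004757 on the minus strand for *Yap1*, chr3:57576021-57576066 on the minus strand for *Wwtr1*, chr17:28350689-28350743 on the minus strand for *Tead3*, with 2 cores, and chr16:65815106-65815151 on the plus strand for *Vgll3*.
Yap1: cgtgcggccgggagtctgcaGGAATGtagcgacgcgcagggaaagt
Wwtr1: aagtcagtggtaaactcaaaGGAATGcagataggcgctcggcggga
Tead3: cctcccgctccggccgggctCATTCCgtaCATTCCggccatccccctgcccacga
Vgll3: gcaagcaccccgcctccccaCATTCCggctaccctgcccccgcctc

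Some features of the whole data set bear on these genes. Depth was read from single-exon genes: a lone fragment on 1000 bases of transcript gave 0.0989 to 0.107 FPKM, except for 0.133 FPKM in WT replicate 5. The number of genes detected per library ran from 16117 to 16982. *Lats1* averaged 15.6 FPKM in WT and 12.1 FPKM in *Lats1/2* PanKO, and *Lats2* 13.8 and 12.3 FPKM. Neither passed the adjusted threshold (limma adjusted p = 0.269 and 0.589). For *Lats1*, all 3 mutant buds (12.3, 13.8 and 10.1 FPKM) lay below all 5 WT buds (14.1 to 16.6 FPKM, limma unadjusted p = 0.00677). The groups overlapped for *Lats2*. These values are of the whole gene and include cells without Cre, so they do not measure how completely the floxed alleles were deleted. The paper reports loss of cytoplasmic phosphorylated YAP1 in the mutant bud and takes it as a sign of efficient deletion. Of all tested genes, 7.51% had groups that did not overlap. Across genes, the library *Lats1/2* PanKO replicate 3 correlated with the others at r = 0.926 to 0.953, against 0.939 to 0.965 for all other pairs. WT replicate 5 was as distant, at r = 0.926 to 0.949 with the others, and the lowest r was between these libraries. The bud label was checked on marker genes. *Epcam*, of epithelium, averaged 38.1 FPKM in WT and *Pdx1*, of pancreatic progenitors, ran from 9.96 to 21.8 FPKM, while the mesenchymal genes *Vim* and *Barx1* averaged 432 and 334 FPKM, so mesenchymal RNA was present in the buds after dissection. The 14 epithelial markers summed to 269 to 355 FPKM in WT and to 603, 506 and 1241 FPKM in *Lats1/2* PanKO replicates 1 to 3. The 16 mesenchymal markers summed to 1207 to 1361 FPKM in WT and to 1057, 1226 and 953 FPKM in the mutants. Of them, 14 had a lower and 2 a higher fitted level in the mutants. *Vim*, with the largest mean, was among the higher, at 361 to 481 FPKM in WT and 493, 464 and 602 FPKM in the mutants. The paper reports ectopic VIM protein in mutant epithelium, so the sum is not of mesenchyme alone. No marker of these lists was at 0 in all libraries. The 8 endothelial markers summed to 116 to 188 FPKM in WT and 82.3 to 128 FPKM in the mutants. The 8 erythroid markers summed to 2623 to 15706 FPKM in WT and 7933 to 10124 FPKM in the mutants, so blood RNA varied widely among the WT buds. In buds dissected by hand, fewer cells of a type, less RNA per cell and the amount of tissue left by dissection cannot be told apart.

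Within the buds, the members spanned a wide range of levels. *Tead2* stood highest, followed by *Yap1*, *Tead1*, *Vgll4*, *Tead3*, *Wwtr1* and *Tead4*, with *Vgll2* and *Vgll3* close to 0 FPKM. Each gene was above the next in this order in 8 of 8 libraries, except that *Tead3* was above *Wwtr1* in 7 of 8 and *Vgll2* above *Vgll3* in 4 of 8, namely 4 of 5 WT and 0 of 3 mutant buds. Averaged over all libraries, *Tead2* lay above 96.4% of the tested genes, *Yap1* above 88.5%, *Wwtr1* above 51.1% and *Tead4* above 25.4%.

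**Figure D1:**
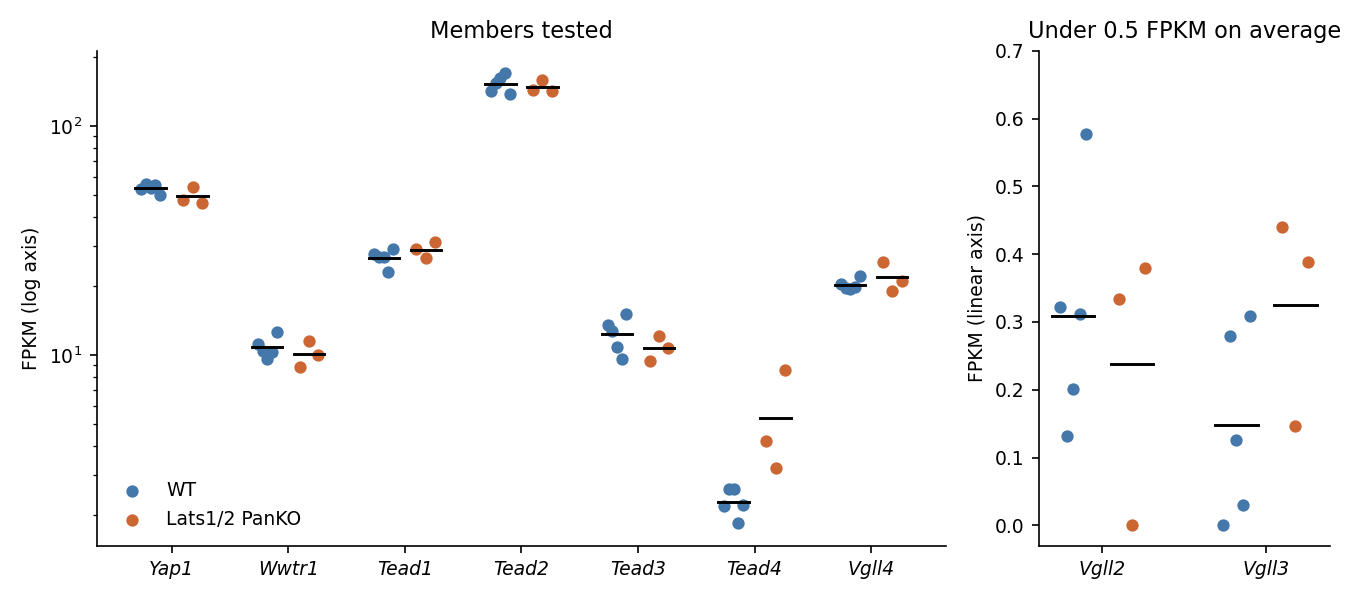
FPKM of the 7 tested genes on a log axis (left) and of *Vgll2* and *Vgll3* on a linear axis (right), with a point per WT or *Lats1/2* PanKO bud and a line at each group mean. *Tead2* lies at 137 to 169.8 FPKM in all libraries, and *Tead4* is the gene whose 3 mutant points (3.20 to 8.59 FPKM) all sit above the 5 WT points (1.84 to 2.60 FPKM).

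The question was whether loss of the kinases changed the RNA of the factors that they control. Of the 9 genes, 7 had an average of 0.5 FPKM or more and were tested with limma on log2(FPKM + 1), and 0 passed an adjusted p of 0.05. Over all 13777 genes tested, 0.0145% passed. At an unadjusted p of 0.05, 1 of the 7 passed, *Tead4*, higher in the mutants, against 11.3% of all tested genes (6.29% higher and 4.99% lower). It was also the only one of the 7 whose groups did not overlap, against 7.51% of all tested genes. Of the 7, 3 had a higher and 4 a lower fitted level in the mutants, with a median log2 difference of -0.05, and the median over all tested genes was -0.01.

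Of the coactivators, *Yap1* (chr9:7932001-8004596, minus strand) measured 53.1, 55.7, 53.6, 55.2 and 50.04 FPKM in WT replicates 1 to 5, and 47.6, 54.3 and 46.1 FPKM in *Lats1/2* PanKO replicates 1 to 3. Mutant replicates 1 and 3 lay below the lowest WT bud, while mutant replicate 2 lay among the WT buds. The means were 53.5 ± 2.24 (SD, n = 5) and 49.3 ± 4.37 FPKM (SD, n = 3), a log2 difference of -0.12 (limma SE 0.07, adjusted p = 0.569). The 95% interval of the fold on the FPKM + 1 scale ran from 0.828 to 1.03. *Wwtr1*, which encodes TAZ (chr3:57455644-57575910, minus strand), measured 11.2, 10.4, 9.60, 10.3 and 12.5 FPKM in WT and 8.89, 11.6 and 9.97 FPKM in the mutants. The groups overlapped, and the log2 difference was -0.09 (limma SE 0.11, adjusted p = 0.825) with a fold between 0.793 and 1.12 at 95%. TAZ RNA stood at 0.203 ± 0.0294 of *Yap1* RNA in WT (SD, n = 5) and 0.205 ± 0.0161 in the mutants (SD, n = 3).

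Among the TEAD factors, *Tead2* (chr7:45215753-45233619, plus strand), a form known for its early embryonic expression, measured 142, 154, 162, 169.8 and 137 FPKM in WT and 143, 159 and 142 FPKM in *Lats1/2* PanKO. The mutant values lay inside the WT range, and the log2 difference was -0.05 (limma adjusted p = 0.887, 95% interval of the fold 0.850 to 1.10). *Tead1* (chr7:112679320-112906805, plus strand), a widely expressed member, measured 27.6, 26.7, 26.7, 23.1 and 29.0 FPKM in WT and 28.9, 26.4 and 31.0 FPKM in the mutants. Only mutant replicate 3 exceeded the highest WT bud, and the log2 difference was 0.11 (limma adjusted p = 0.681, fold 0.945 to 1.23). *Tead3* (chr17:28331673-28350805, minus strand) measured 13.6, 12.7, 10.8, 9.63 and 15.1 FPKM in WT and 9.39, 12.1 and 10.8 FPKM in the mutants. Its log2 difference was -0.18 (limma adjusted p = 0.704, fold 0.706 to 1.11), with overlapping groups. The 4 *Tead* genes are paralogs, and how fragments that match more than 1 of them were shared out is not given in the sources used here.

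*Tead4*, known for its role in the trophectoderm of the early embryo, differed from these. At chr6:128227143-128300813 on the minus strand, it measured 2.201, 2.60, 2.59, 1.84 and 2.21 FPKM in WT, and 4.20, 3.20 and 8.59 FPKM in *Lats1/2* PanKO. All 3 mutant buds lay above all 5 WT buds, and mutant replicate 3 was the highest. The mean was 2.29 ± 0.317 FPKM in WT (SD, n = 5) and 5.33 ± 2.87 FPKM in the mutants (SD, n = 3), a ratio of 2.33. Without mutant replicate 3 the ratio was 1.62. The fitted log2 difference was 0.86 (limma SE 0.24, unadjusted p = 0.00621), and it did not pass adjustment over all genes (adjusted p = 0.267). The exact two-sided permutation test gave p = 0.0179, which is the smallest value that 5 against 3 buds can give.

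**Figure D2:**
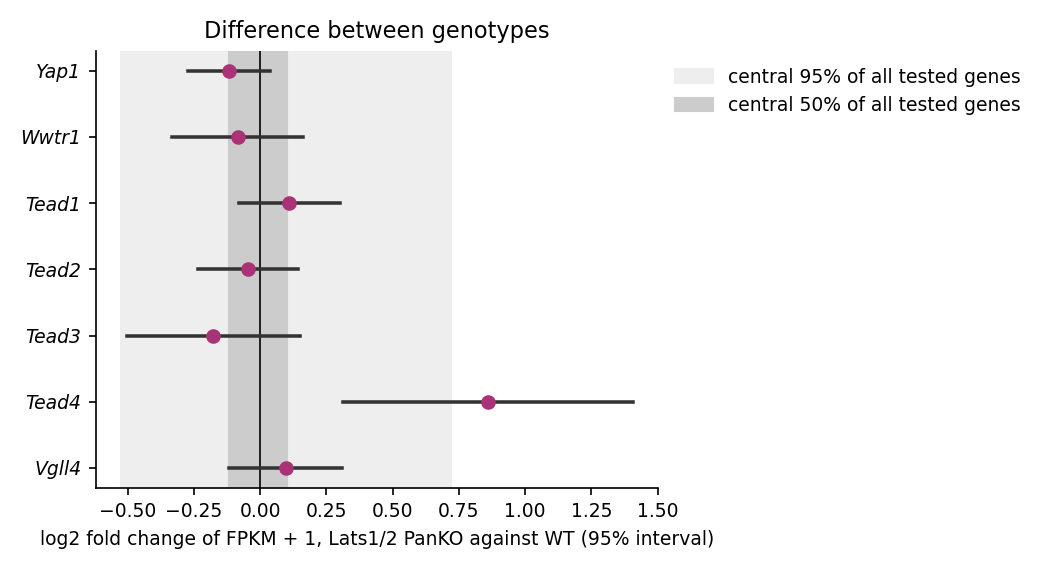
Fitted log2 difference (*Lats1/2* PanKO minus WT, log2(FPKM + 1)) of the 7 tested genes, with points for the estimate, lines for the 95% interval from limma, and grey bands for the central 50% (-0.12 to 0.10) and 95% (-0.52 to 0.72) of all tested genes. The interval of *Tead4*, 0.31 to 1.41, is the only one of the 7 that does not include 0.

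The epithelial markers were high in the same libraries as *Tead4*. Of the 14, 11 were higher in the mutants at an unadjusted limma p of 0.05 and 0 passed the adjusted threshold, and the median log2 difference was 1.17. Without mutant replicate 3, 11 were also higher and the median was 0.81. The sum was led by the keratins *Krt8* (55.95 FPKM in WT and 156 FPKM in the mutants) and *Krt18* (61.8 and 149 FPKM), while *Pdx1*, *Cpa1* and *Ptf1a*, of pancreatic progenitors, overlapped between the groups (log2 differences of 0.57, 0.40 and -0.15). *Tead4* per 1000 FPKM of summed epithelial markers was 6.89, 7.32, 9.64, 6.04 and 7.01 in WT and 6.97, 6.33 and 6.92 in the mutants. The mutant values lay inside the WT range, with means of 7.38 ± 1.35 (SD, n = 5) and 6.74 ± 0.36 (SD, n = 3) and an exact permutation p of 0.554. This ratio was chosen after the values had been seen, and its divisor is itself made of genes of which most were higher in the mutants. It was taken for *Tead4* alone. Divided by the same sums, a gene with equal FPKM in both groups would come out lower in the mutants. The paper lists *Sox9*, which is among these markers, as a known TEAD target. The mesenchymal markers had a median log2 difference of -0.36, with 1 of 16 higher and 4 lower at an unadjusted p of 0.05. Without mutant replicate 3 it was -0.15, with 0 higher and 1 lower. The liver and neural marker lists also stood highest in mutant replicate 3. The 8 liver markers summed to 192, 154 and 448 FPKM in the mutants against 108 to 189.7 FPKM in WT, and the 8 neural markers to 27.8, 21.5 and 35.9 FPKM against 18.2 to 27.4 FPKM. What part these markers have in the *Tead4* difference was not tested further.

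**Figure D3:**
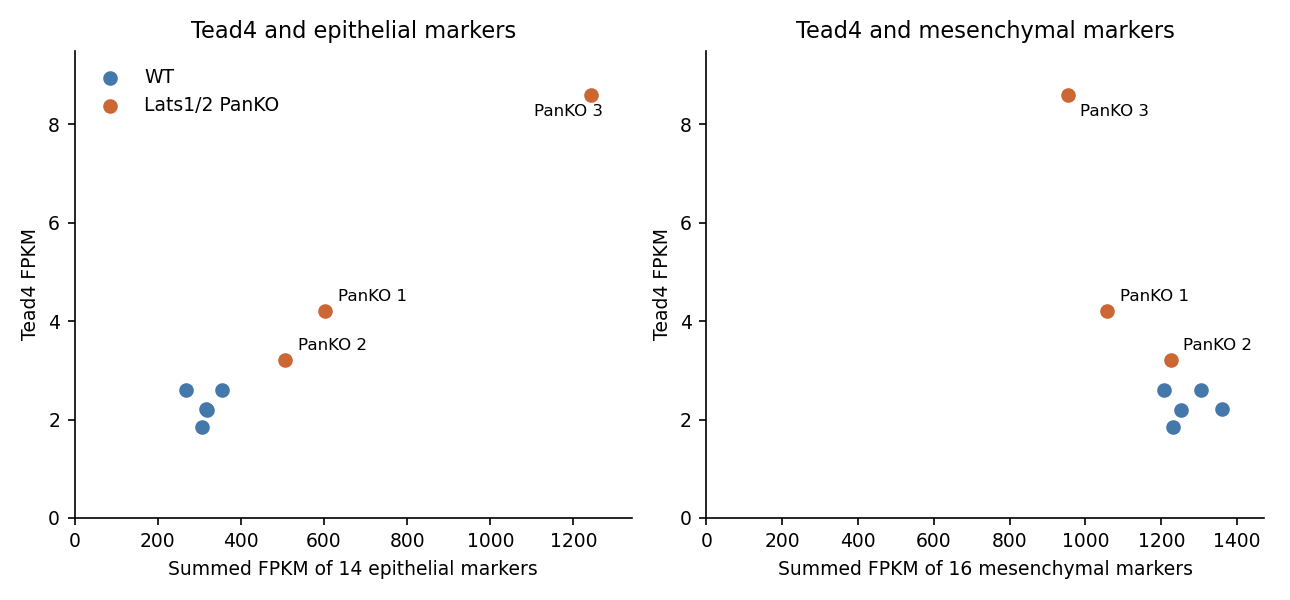
*Tead4* FPKM of each library against the summed FPKM of the 14 epithelial markers (left) and of the 16 mesenchymal markers (right), with WT and *Lats1/2* PanKO buds in separate colors. Mutant replicate 3 has both the highest *Tead4* level (8.59 FPKM) and the highest epithelial sum (1241 FPKM), and the lowest mesenchymal sum (953 FPKM). The mesenchymal sum includes *Vim*, which was itself highest in that replicate (602 FPKM).

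The makeup of the TEAD pool was taken within each library, where a share does not depend on scaling. *Tead2* made up 78.6% of summed *Tead* FPKM in WT and 76.7% in the mutants, *Tead1* 13.8% and 15.0%, and *Tead3* 6.42% and 5.56%. None of these 3 shares differed beyond the spread of the buds by the exact permutation test (p = 0.411, 0.393 and 0.357). *Tead4* made up 1.18% ± 0.166 in WT (SD, n = 5) and 2.26%, 1.60% and 4.48% in mutant replicates 1 to 3. Its share was above the WT range in 3 of 3 mutants (exact permutation p = 0.0179), and over the family of 8 ratios and shares the adjusted p was 0.143.

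**Figure D4:**
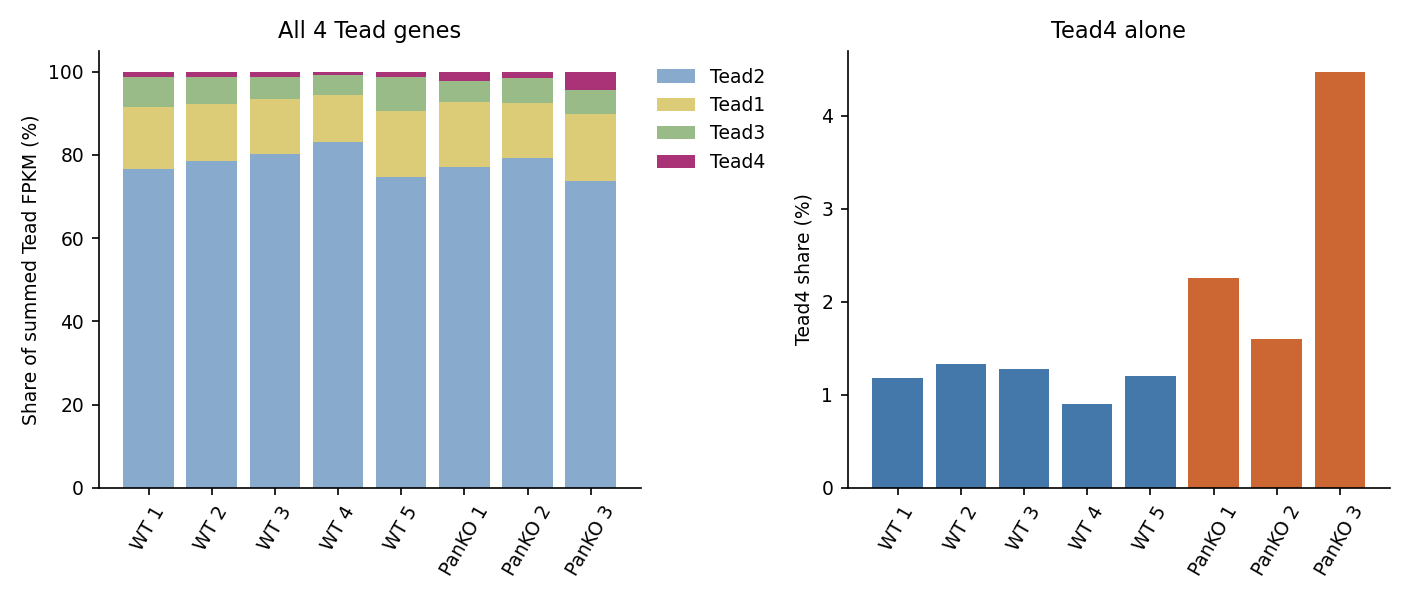
Share of each *Tead* gene in the summed FPKM of *Tead1* to *Tead4*, in percent, for each library (left, stacked bars), and the *Tead4* share alone (right). *Tead2* holds the main share in every bud, and the *Tead4* share is 0.902% to 1.33% in WT against 1.60% to 4.48% in *Lats1/2* PanKO.

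Of the VGLL cofactors, only *Vgll4* was well expressed. At chr6:114862092-114921752 on the minus strand, it measured 20.4, 19.7, 19.4, 19.8 and 22.02 FPKM in WT and 25.4, 19.0 and 21.1 FPKM in *Lats1/2* PanKO. The mutant buds lay on both sides of the WT range, and the log2 difference was 0.10 (limma SE 0.09, adjusted p = 0.759, fold 0.923 to 1.24). *Vgll2*, a cofactor known from skeletal muscle, lay at 0.322, 0.132, 0.2004, 0.312 and 0.578 FPKM in WT and at 0.334, 0 and 0.380 FPKM in the mutants. *Vgll3* lay at 0, 0.279, 0.125, 0.0293 and 0.309 FPKM in WT and at 0.439, 0.146 and 0.388 FPKM in the mutants. Both were under the level tested. These values stand for about 7.19 fragments at most for *Vgll2* and 29.2 for *Vgll3*. No difference beyond the spread of the buds was detected (exact permutation p = 0.661 and 0.179).

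The balance between coactivators, TEAD factors and competitor was compared as ratios within each bud. Summed *Yap1* and *Wwtr1* stood at 0.332 ± 0.0143 of summed *Tead* RNA in WT (SD, n = 5), and at 0.304, 0.328 and 0.292 in the mutants. Mutant replicates 1 and 3 lay below the WT range and replicate 2 inside it (exact permutation p = 0.0893, adjusted p = 0.357). *Vgll4* stood at 0.315 ± 0.0217 of summed *Yap1* and *Wwtr1* in WT, and at 0.450, 0.289 and 0.377 in the mutants, on both sides of the WT buds (exact permutation p = 0.232, adjusted p = 0.548). Its ratio to summed *Tead* RNA was 0.105 ± 0.0101 in WT and 0.114 ± 0.0214 in the mutants (exact permutation p = 0.554, adjusted p = 0.633). None of the 8 ratios and shares passed adjustment.

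The other genes of the pathway were taken as lists. Of 24 upstream kinases, scaffolds and regulators, all tested, 4 were higher and 2 lower at an unadjusted limma p of 0.05, where 6.29% of all tested genes were higher and 4.99% lower, with a median log2 difference of 0.06. *Frmd6*, a FERM-domain regulator, averaged 3.85 ± 0.622 FPKM in WT (SD, n = 5) and 9.31 ± 2.75 FPKM in the mutants (SD, n = 3; limma adjusted p = 0.109). *Ajuba*, an adaptor that binds LATS, averaged 12.3 and 19.5 FPKM, and *Wwc1*, the scaffold KIBRA, 10.2 and 21.8 FPKM (limma adjusted p = 0.197 and 0.212). All 3 had every mutant bud above every WT bud, but they were named for having the smallest p of the list. Of all 24, 7 had groups that did not overlap, 6 higher and 1 lower in the mutants, against 7.51% of all tested genes. Among 23 proteins that bind, hold back or turn over YAP and TAZ, 22 were tested, with 3 higher and 0 lower at the same p and a median of 0.03. The 3 were *Amotl2*, an angiomotin that tethers YAP, at 32.1 and 48.7 FPKM, *Ptpn14*, a phosphatase that binds YAP, at 8.09 and 12.9 FPKM, and *Wbp2*, which binds its WW domains, at 20.2 FPKM in WT and 24.4, 21.8 and 28.8 FPKM in the mutants.

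Of 28 nuclear partners of TEAD or of the coactivators, 23 were tested, with 1 higher and 0 lower at an unadjusted p of 0.05 and a median log2 difference of -0.05. The 1 was *Jun*, an AP-1 subunit, with means of 34.6 FPKM in WT and 66.8 FPKM in the mutants (limma adjusted p = 0.315). It measured 52.5, 46.1 and 102 FPKM in mutant replicates 1 to 3, and the groups overlapped. *Jund*, a further AP-1 subunit, averaged 35.9 FPKM in WT and 42.2 FPKM in the mutants (limma adjusted p = 0.533). Of 22 target genes of YAP/TAZ and TEAD in many tissues, 21 were tested, with 6 higher and 4 lower at that p (6.29% and 4.99% of all tested genes) and a median of 0.06. *Ankrd1*, a muscle ankyrin-repeat protein widely used as a readout of YAP, measured 2.29, 2.31 and 8.81 FPKM in the mutants, while 4 WT libraries listed it at 0 and WT replicate 3 at 0.0619 FPKM. *Ctgf*, a secreted matricellular protein, averaged 3.63 and 10.7 FPKM, and *Myof* 1.35 and 7.32 FPKM. *Ankrd1*, *Ctgf* and *Myof* were named for having the smallest p of the list. Of the 21 tested targets, 11 had a higher and 10 a lower fitted level in the mutants. The ratio of means of *Myof* was 5.42, and 3.00 without mutant replicate 3. In the same way it went from 2.95 to 2.24 for *Ctgf*, from 1.93 to 1.425 for *Jun* and from 1.60 to 1.27 for *Ptpn14*. For *Wwc1* it went from 2.14 to 1.54, for *Frmd6* from 2.42 to 2.045 and for *Ajuba* from 1.59 to 1.385. No gene of the 4 lists passed an adjusted p of 0.05, and *Amotl2*, *Ptpn14* and *Lats2* stand in 2 lists. Without mutant replicate 3, the higher and lower counts were 3 and 1 upstream, 2 and 0 for the binding proteins, 0 and 0 for the partners and 5 and 1 for the targets, where 3.51% of 13699 tested genes were higher and 2.19% lower.

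**Figure D5:**
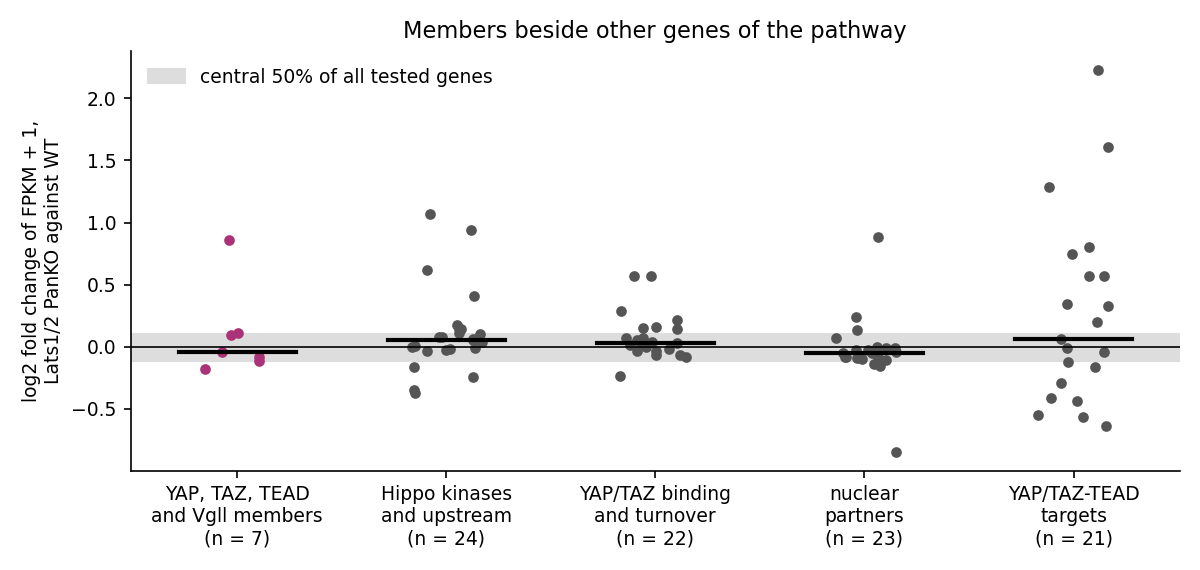
Log2 difference (*Lats1/2* PanKO minus WT, log2(FPKM + 1)) of each tested gene of the 4 pathway lists and of the members, 1 point per gene, with a line at each median and a grey band for the central 50% of all tested genes. List medians lie between -0.05 and 0.06, and *Ankrd1* and *Myof* stand at 2.23 and 1.61.

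The genes whose levels followed *Tead4* most closely over the 8 libraries, among 9277 genes that averaged 5 FPKM or more, were *Camsap3*, *Arhgef16* and *Ptprn2* (Pearson's r = 0.991, 0.987 and 0.986, Spearman's rho = 0.905, 0.786 and 0.857). With the 2 libraries farthest from the median left out, r was 0.904, 0.874 and 0.842. *Camsap3* averaged 4.37 FPKM in WT and 8.09 FPKM in the mutants. For *Yap1* they were *Etfb*, *Mmp11* and *Ddias* (r = 0.967, 0.961 and 0.958), and for *Tead1* they were *Abcc8*, *Dennd4c* and *Trio* (r = 0.985, 0.968 and 0.964). These are the closest of many genes over few libraries that share genotype and tissue makeup, and they are given as a description.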

How the data were processed

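Total RNA from 5 WT and 3 *Lats1/2* PanKO buds was measured in 8 libraries. The authors aligned paired stranded reads to GRCm38 with TopHat2 2.1.0 and deposited FPKM values of 24341 genes per library. The sample notes also name cutadapt 1.12 and Cuffdiff 2.2.1. The methods speak of quantile-normalized FPKM. The deposited columns, whose distributions are not identical, were used as they are. Read counts are not given, so no count model was used.

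The 13777 genes averaging 0.5 FPKM or more were compared with limma 3.58.1 in R 4.3.3 on log2(FPKM + 1), computed here from the deposited FPKM, with a mean-variance trend and Benjamini-Hochberg adjustment over all of them (threshold 0.05). The added 1 FPKM understates folds of low genes. Exact two-sided permutation tests used all 56 assignments of buds. The table's locus starts are counted from 0, and 1 was added. One value, of *Nolc1*, is marked FAIL in the table and was left in.

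The members, the lists and the tests were chosen with earlier results of these data known. Named genes are the members, *Lats1* and *Lats2*, 3 per list by smallest p, the 3 closest to each of 3 members, and abundant markers. One gene that this rule names is not reported here. The script was tested on simulated data. Alternatives changed the scaling (median-ratio or quantile), the pseudocount (0.1), the filter (none, or 2 FPKM), the model (array weights, no trend, replicate number as block), means (medians for ratios) or the libraries, dropping 1 at a time. Same-numbered buds deviated with r = 0.0855, -0.0969 and 0.0685, so numbers were not taken as pairs. Python 3.11.15 with matplotlib 3.10.9 drew the figures. Protein sequences were not used here.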

Additional observations from a re-analysis of the deposited data

How the results depend on the processing

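The number of members past the adjusted threshold was 0 under all 16 alternatives, and *Tead4* kept its direction in all 16 (log2 difference 0.51 to 1.11, limma adjusted p = 0.081 to 0.568). With the replicate number as a block it was 0.78 (limma adjusted p = 0.513), and the block changed no member's call. Of the 6 buds with a number in both groups, 4 had deviations from their group mean that correlated best, among the 3 buds of the other genotype, with the bud of their own number, at correlations near 0. With array weights, *Yap1*, *Tead3*, *Tead4* and *Vgll4* had an unadjusted p under 0.05, 4 members in all, and without mutant replicate 2 there were 2, *Yap1* and *Tead4*. Divided by summed epithelial markers, an alternative chosen after seeing the data, the log2 difference of *Tead4* was -0.11 against 1.10 for log2 FPKM.

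With a library left out, log2 differences ran from -0.02 to 0.11 for *Wwtr1*/*Yap1* (0.03 with all libraries, 0.19 with medians and 0.095 with the block, negative without WT replicates 2, 3 or 4 at -0.00012, -0.015 and -0.0014, and without mutant replicates 2 or 3 at -0.0013 and -0.012), from -0.15 to -0.069 for coactivators over *Tead* and from 0.067 to 0.39 for *Vgll4* over coactivators (p = 0.0476 by the exact permutation test for both without mutant replicate 2). They ran from -0.031 to 0.23 for *Vgll4* over *Tead* and from -0.01 to 0.19 for *Vgll4*, both negative without mutant replicate 1, and from -0.17 to 0.061 for *Vgll2*, positive without mutant replicate 2. With a pseudocount of 0.1 *Vgll2* was at -0.48 and *Vgll3* at 0.91, against -0.09 and 0.21. Why these values moved was not tested. Of all 13777 tested genes, 2 passed, against 18 with a pseudocount of 0.1, 174 with array weights, 1 with the block, 1 without a trend and 0 to 69 with a library left out (69 without mutant replicate 2, 19 without mutant replicate 3). Few libraries, the mixed tissue and low fragment numbers for *Vgll2* and *Vgll3* limit what can be seen.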

Other observations

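*Vgll1*, a further cofactor of the family and outside the 9 genes, was looked at after the values had been seen. It was at 0 FPKM in 7 libraries and at 0.183 FPKM in *Lats1/2* PanKO replicate 3.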
